A study of Mus musculus with 14 samples.

Results

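MHC class II molecules display peptides from ingested protein to CD4 T cells, and 10 genes that build, load and switch on this system were followed here: the peptide-binding chains H2-Aa, H2-Ab1 and H2-Eb1, the invariant chain Cd74, the peptide exchanger genes H2-DMa, H2-DMb1 and H2-DMb2, the exchanger's inhibitor H2-Oa and H2-Ob, and the transactivator Ciita. The genes were taken by symbol from both deposited tables, 10 of 24980 genes in the dendritic cell table and 10 of 17118 in the monocyte and macrophage table. The members were chosen with earlier results of these data known, by name and not by a measured value.

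The study profiled RNA, depleted of ribosomal RNA, of flow-sorted marrow cells from Cx3cr1gfp/+ mice, in which GFP reports the chemokine receptor CX3CR1. The series text also calls the animals wildtype. Dendritic cells came from mice given PAM3CSK4, a synthetic lipopeptide that activates the TLR1/2 receptor, as a single dose (4 libraries) or vehicle alone (4 libraries), and were gated on high GFP, high CD11c and high MHC class II, with Gr-1 and B220 excluded. Baseline macrophages (3 libraries) were sorted without GFP, Gr-1 and B220, as high in MHC class II and positive for CD169, and baseline monocytes (3 libraries) as GFP-high and CD115-positive without B220, whatever their Gr-1. MHC class II protein was thus part of the dendritic cell and macrophage gates and not of the monocyte gate. The dose, the time after it, and the strain, sex, age and number of mice are not given in the labels, nor whether each library is a separate mouse. The p-values therefore rest on a spread between libraries that may be partly technical.

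Class II alpha and beta chains pair in the endoplasmic reticulum around the invariant chain, which blocks the binding groove and carries the complex to endosomes. There proteases trim the invariant chain to a short remnant, H2-DM exchanges the remnant for antigen peptide, and H2-O holds H2-DM back. CIITA is the coactivator that the factors bound at class II promoters recruit, and it governs class II transcription in dendritic cells, macrophages and B cells.

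The factors that recruit CIITA bind paired elements upstream of class II genes, the X box (bound by RFX) and the Y box (bound by NF-Y). RefSeq promoters (GRCm38.p6, 250 bases before to 50 after a start) were found for 7 of the 10 genes, in 8 windows. Both strands were searched for CNNGNAAC, a loose form of the X box, and ATTGG, the Y box, in this order with 30 to 40 bases between their first letters, so that they do not overlap. The motif was chosen with these promoters in view. The pair was found for 5 of the 7 genes (H2-Aa, H2-Eb1, H2-DMb1, H2-Oa and H2-Ob) and in 0.441% of all 32851 promoters. Of all promoters 39.1% held the first motif and 37.4% the second, each counted with or without the other. It was found in neither window of H2-DMa nor in that of H2-DMb2. Promoters of H2-Ab1, Cd74 and Ciita were not used here. The 5 stretches are shown because these genes were lower in every PAM3CSK4 library of dendritic cells than in any vehicle library, and that of H2-DMb2 because it was not. H2-DMa was also lower in every PAM3CSK4 library, so the pair was not found in every gene that was lower. Capitals mark the X and then the Y box, and in H2-DMb2 the letters aligned with those of H2-DMb1.
H2-Aa (chr17:34287857-34287917, minus strand): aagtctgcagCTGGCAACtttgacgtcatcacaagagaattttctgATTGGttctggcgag
H2-Eb1 (chr17:34305763-34305822, plus strand): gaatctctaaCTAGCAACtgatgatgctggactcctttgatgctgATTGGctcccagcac
H2-DMb1 (chr17:34153084-34153144, plus strand): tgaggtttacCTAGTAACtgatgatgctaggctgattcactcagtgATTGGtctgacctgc
H2-DMb2 (chr17:34145113-34145173, plus strand): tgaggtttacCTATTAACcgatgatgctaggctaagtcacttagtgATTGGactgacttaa
H2-Oa (chr17:34092290-34092350, plus strand): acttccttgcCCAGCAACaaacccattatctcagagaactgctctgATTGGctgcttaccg
H2-Ob (chr17:34238805-34238862, plus strand): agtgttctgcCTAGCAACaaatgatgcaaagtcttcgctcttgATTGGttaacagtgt

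The windows of H2-DMb1 and H2-DMb2 were identical in 77.0% of 270 aligned columns. Their Y box letters were the same, and their X box letters differed by G4T, counted from the 5′ end of the X box with the H2-DMb1 base first. That base lies at the fixed G of the searched motif. A match or a mismatch here describes letters in a window and not the binding of a factor.

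Expression values, which the authors labelled FPKM, are treated as CPM, reads scaled to a common library total without division by gene length. This unit was read from the values and not from the labels, and the listed genes summed to 350368 to 578711 per library. Levels are therefore compared between samples and not between genes. The depth behind a value was read from the smallest steps in each library: if 1 step is 1 read, 1 CPM stood for 28.2 to 65.3 reads in the PAM3CSK4 libraries, 37.9 to 71.6 in the vehicle libraries, 33.4 to 75.2 in macrophages and 49.9 to 56.5 in monocytes. One library stood apart before any result. PAM3CSK4 replicate 4 correlated with the other PAM3CSK4 libraries at r = 0.879 to 0.894 over the genes tested, whereas those 3 reached r = 0.961 with each other. Its neutrophil markers summed to 11520 CPM, against 512 to 1560 CPM in the other PAM3CSK4 libraries and 415.6 to 822.3 CPM with vehicle. Its Itgax, which encodes the sorted CD11c, was at 27.5 CPM, against 181 to 283 CPM in the other PAM3CSK4 libraries and 170 to 272 CPM with vehicle. Results of the 10 genes in dendritic cells are therefore given with and without it.

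In dendritic cells the mean of 9 of the 10 genes was lower with PAM3CSK4, but only H2-DMa passed the test when all 8 libraries were used. In these 9 genes the mean of PAM3CSK4 replicates 1 to 3 was 0.445 to 0.612 of the vehicle mean, and replicate 4 was far lower still. H2-DMb2 was higher in replicates 1 to 3. Together the 10 genes held 1.42%, 1.14%, 1.43% and 0.211% of the CPM of all listed genes in PAM3CSK4 replicates 1 to 4, and 2.63% to 3.64% with vehicle, so the groups did not overlap. In bulk samples, fewer cells of a type and less RNA per cell cannot be told apart.

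H2-Aa, the alpha chain of the I-A molecule, was at 1457, 1441, 1480 and 182 CPM in PAM3CSK4 replicates 1 to 4, against 2773, 3330, 3215 and 3225 CPM in vehicle replicates 1 to 4. The first 3 PAM3CSK4 libraries were nearly equal, the fourth was far below them, and all lay below every vehicle library. The difference on the log2(CPM + 1) scale was −1.85 ± 0.58 (SE) and did not pass the threshold of 0.05 (adjusted p = 0.083, limma, Benjamini-Hochberg over all 11377 genes tested). Without PAM3CSK4 replicate 4 it was smaller and passed (−1.10 ± 0.23, adjusted p = 0.010).

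H2-Ab1, the beta chain that pairs with H2-Aa, was at 948, 995, 1401 and 194 CPM in PAM3CSK4 libraries, against 2526, 2456, 1878 and 3155 CPM in vehicle libraries. The highest PAM3CSK4 library was below the lowest vehicle library. Its log2 difference was −1.79 ± 0.51 (adjusted p = 0.064, limma), and −1.16 ± 0.26 without PAM3CSK4 replicate 4 (adjusted p = 0.016).

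H2-Eb1, the beta chain of I-E, was at 1214, 1235, 1429 and 197 CPM in PAM3CSK4 libraries, against 2441, 2468, 2153 and 2701 CPM in vehicle libraries. These groups did not overlap either, with a log2 difference of −1.59 ± 0.53 (adjusted p = 0.099, limma) and of −0.92 ± 0.23 without replicate 4 (adjusted p = 0.029). The gene of the I-E alpha chain, annotated as the pseudogene H2-Ea-ps, was listed at 0.0001 CPM, the lowest value in the tables, in all 8 dendritic cell libraries.

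Cd74, the invariant chain, was at 2125, 2072, 2494 and 337 CPM in PAM3CSK4 libraries, against 4272, 4830, 4735 and 6097 CPM in vehicle libraries. The groups were separate, and the log2 difference was −1.83 ± 0.54 (adjusted p = 0.072, limma), or −1.15 ± 0.25 without replicate 4 (adjusted p = 0.012). Relative to the chains it escorts, Cd74 overlapped between the groups. Per 1000 CPM of H2-Aa, H2-Ab1 and H2-Eb1 together there were 564 to 588 CPM of Cd74 in the 4 PAM3CSK4 libraries, replicate 4 included, and 552 to 671 CPM in the 4 vehicle libraries.

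The H2-DM exchanger is a dimer of the H2-DMa alpha chain and a beta chain from H2-DMb1 or H2-DMb2. H2-DMa was at 130, 73.3, 125 and 29.4 CPM in PAM3CSK4 libraries, against 208, 216, 217 and 316 CPM in vehicle libraries. The groups did not overlap, and H2-DMa fell with all 8 libraries (log2 difference −1.60 ± 0.40, adjusted p = 0.042, limma) as it did without PAM3CSK4 replicate 4 (−1.14, adjusted p = 0.017). It no longer passed without PAM3CSK4 replicate 2 (adjusted p = 0.074) or without any 1 of the vehicle libraries (adjusted p = 0.094 to 0.11). H2-DMa shares 360 exonic bases with Brd2 on the other strand, and the strand setting of the counting is not given in the sources used here. Brd2 itself had a log2 difference of −0.01 ± 0.23.

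H2-DMb1 was at 165, 113, 135 and 25.1 CPM in PAM3CSK4 libraries, against 284, 294, 294 and 352 CPM in vehicle libraries. Every PAM3CSK4 library was below every vehicle library. The log2 difference was −1.76 ± 0.47 (adjusted p = 0.051, limma), and −1.16 ± 0.23 without replicate 4 (adjusted p = 0.0066).

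H2-DMb2, the neighbouring beta chain gene, went the other way in 3 of the 4 libraries. It was at 43.1, 29.1, 33.1 and 2.64 CPM in PAM3CSK4 libraries, against 14.97, 19.1, 22.4 and 18.9 CPM in vehicle libraries. PAM3CSK4 replicates 1 to 3 lay above every vehicle library and replicate 4 below all of them, so that the log2 difference over 8 libraries was 0.04 ± 0.62 (adjusted p = 0.98, limma), with a sign that other scalings turn. Without replicate 4 H2-DMb2 rose (0.86 ± 0.24, adjusted p = 0.048). In replicate 4 it was at 7.51% of the mean of the other PAM3CSK4 libraries, and the remaining 9 members were at 11.5% to 26.9%.

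Setting the beta chain genes against each other within a library shows a difference in all 4 treated libraries. H2-DMb2 stood at 26.1, 25.9, 24.5 and 10.5 CPM per 100 CPM of H2-DMb1 in PAM3CSK4 replicates 1 to 4, against 5.27, 6.48, 7.62 and 5.37 in vehicle replicates 1 to 4. The lowest PAM3CSK4 library was above the highest vehicle library. This ratio was chosen after the values were seen and is given without a test. The transcripts of the 2 genes share 369 stretches of 50 bases, 22.7% of those of H2-DMb1 and 21.2% of those of H2-DMb2, so some reads could have been given to either gene. Their sum was 27.8 to 208 CPM in PAM3CSK4 libraries and 299 to 371 CPM in vehicle libraries.

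H2-Oa and H2-Ob form the H2-O dimer that inhibits H2-DM. H2-Oa was at 22.1, 10.8, 12.7 and 2.60 CPM in PAM3CSK4 libraries, against 25.6, 26.4, 35.4 and 37.3 CPM in vehicle libraries. H2-Ob was at 51.2, 20.7, 18.7 and 3.48 CPM in PAM3CSK4 libraries, against 61.3, 53.2, 71.1 and 55.2 CPM in vehicle libraries. Neither gene's groups overlapped, although PAM3CSK4 replicate 1 came close to the vehicle libraries in both. The log2 differences were −1.56 ± 0.45 for H2-Oa (adjusted p = 0.066, limma) and −1.78 ± 0.55 for H2-Ob (adjusted p = 0.082). Without replicate 4 both fell, with −1.04 ± 0.28 for H2-Oa (adjusted p = 0.038) and −1.11 ± 0.31 for H2-Ob (adjusted p = 0.046). Relative to the exchanger, the inhibitor overlapped between the groups: H2-Oa and H2-Ob summed to 11.2 to 24.8 CPM per 100 CPM of H2-DMa and H2-DMb1 in PAM3CSK4 libraries and to 13.9 to 20.8 CPM in vehicle libraries. H2-Oa shares 321 exonic bases with the antisense gene BC051537, which was at most at 0.322 CPM in any dendritic cell library.

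Ciita was at 107, 51.3, 69.5 and 13.5 CPM in PAM3CSK4 libraries, against 135, 137, 94.3 and 131 CPM in vehicle libraries. The groups overlapped, because PAM3CSK4 replicate 1 exceeded vehicle replicate 3. Its log2 difference of −1.34 ± 0.48 did not pass with all 8 libraries (adjusted p = 0.12, limma), nor did that of −0.75 without replicate 4 (adjusted p = 0.12). Ciita was the only member besides H2-DMb2 whose groups overlapped. Ciita shares 329 exonic bases with Dexi on the other strand. Dexi itself had a log2 difference of −0.70 ± 0.36 (adjusted p = 0.25, limma).

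**Figure D1:**
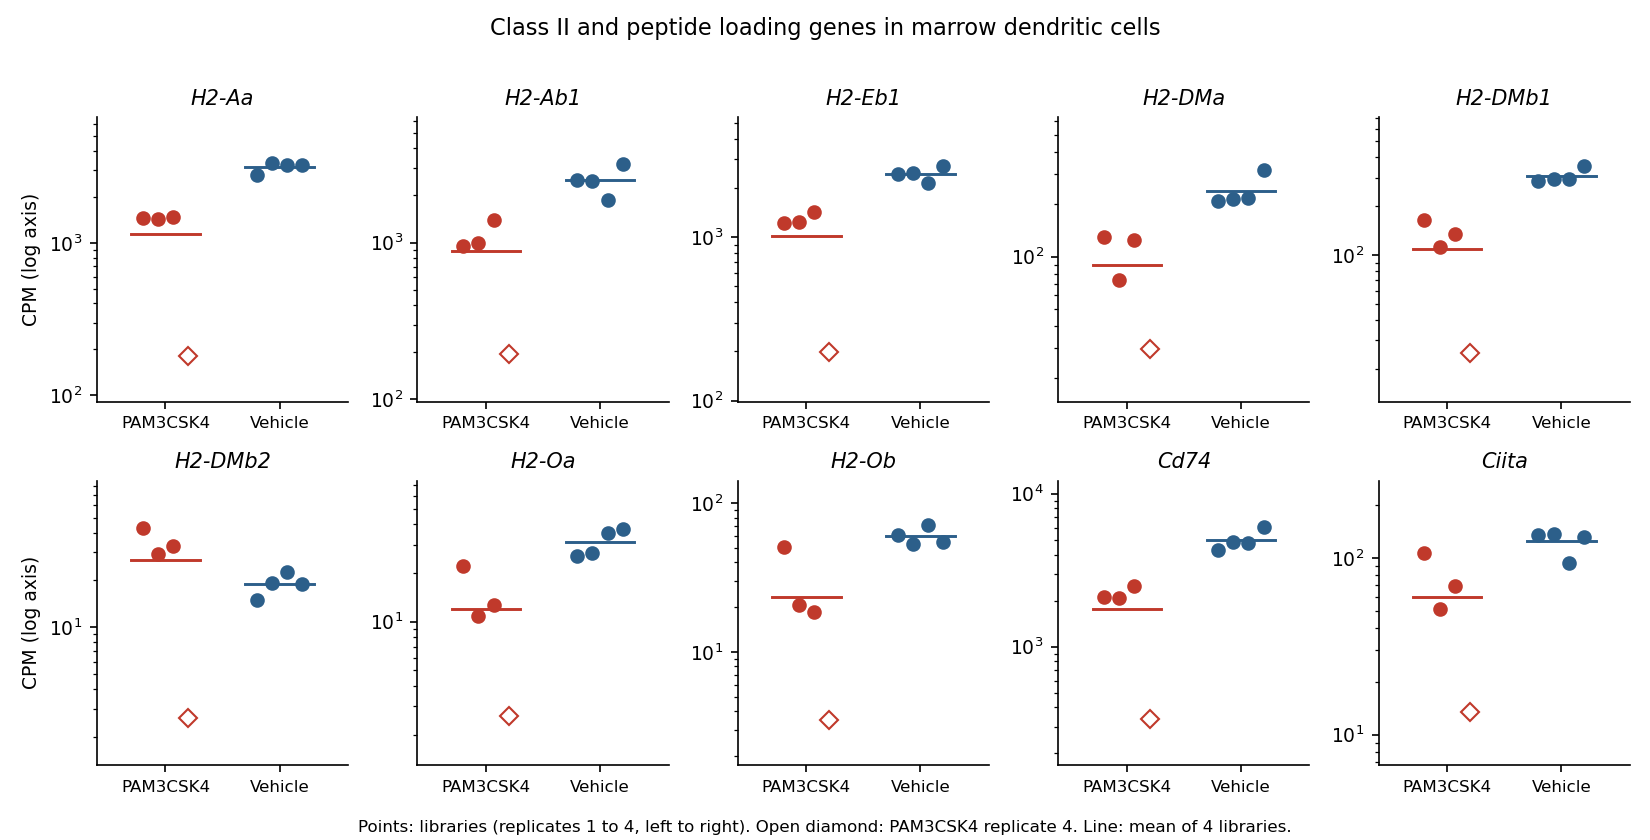
CPM of each of the 10 genes (log axis) in the 4 PAM3CSK4 libraries (left) and the 4 vehicle libraries (right), with the mean as a line and PAM3CSK4 replicate 4 as an open diamond. In 8 of the 10 genes all PAM3CSK4 libraries lie below all vehicle libraries, and in H2-DMb2 only the open diamond does.

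Over the set, 1 of 10 genes passed as lower and 0 as higher with all 8 libraries, where 2.29% of all genes tested passed as lower and 5.12% in either direction (limma). At an unadjusted p under 0.05, 9 of 10 were lower and 0 higher, where 7.06% of all genes tested were lower. In 8 of the 10 every PAM3CSK4 library was below every vehicle library, against 4.68% of all genes tested in that direction and 14.8% in either, and the exact permutation test gave p = 0.0286 for each of these, the smallest p that 4 against 4 libraries allow. Without PAM3CSK4 replicate 4, 8 genes passed as lower (2.8% of all genes tested) and 1 as higher (4.03%, and 6.83% in either direction). Without replicate 1 instead, 5 passed as lower (3.19% of all genes tested), and without replicate 3 the count was 1 (1.42%). Without replicate 2 it was 0 (1.67%), as it was without vehicle replicate 1, 2, 3 or 4 (1.29%, 0.933%, 1.12% and 1.17%). The median log2 difference of the 10 was −1.68 with all libraries, beside 0.20 for all genes tested, and −1.11 without replicate 4, beside 0.19.

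**Figure D2:**
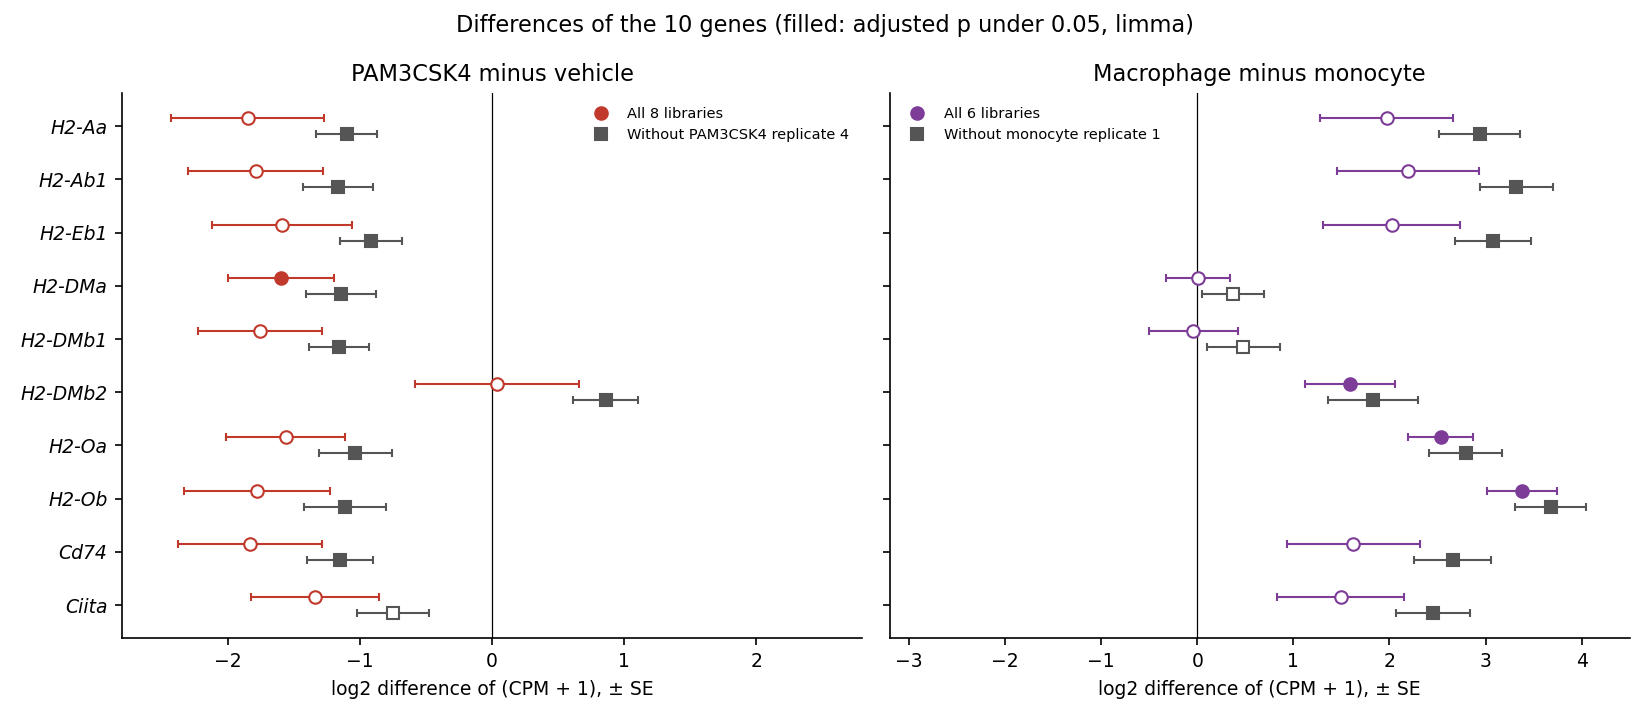
Log2 difference of (CPM + 1) ± SE for each gene, PAM3CSK4 minus vehicle (left) and macrophage minus monocyte (right), with all libraries (circles) and without the library that stood apart (squares), filled where the adjusted p from limma was under 0.05. On the left 1 circle and 9 squares are filled, and on the right 3 circles and 8 squares.

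PAM3CSK4 replicate 4 was at 7.51% to 26.9% of the mean of the other PAM3CSK4 libraries in each of the 10 genes, together with its high neutrophil markers and low Itgax. The part of its cell composition in the size of the differences was not tested. Set against Itgax in the same library, the summed chains H2-Aa, H2-Ab1 and H2-Eb1 stood at 13.04, 20.3, 15.3 and 20.8 CPM per CPM in PAM3CSK4 libraries and at 30.4 to 42.5 in vehicle libraries. On this ratio, given as a description, replicate 4 was the highest of its group, next to replicate 2, and the groups did not overlap. Itgax itself had a log2 difference of 0.09 ± 0.25 without replicate 4 (adjusted p = 0.87, limma). Of the 6 sorting marker genes tested 0 passed with or without replicate 4, and 1 with it and 2 without it had an unadjusted p under 0.05.

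**Figure D3:**
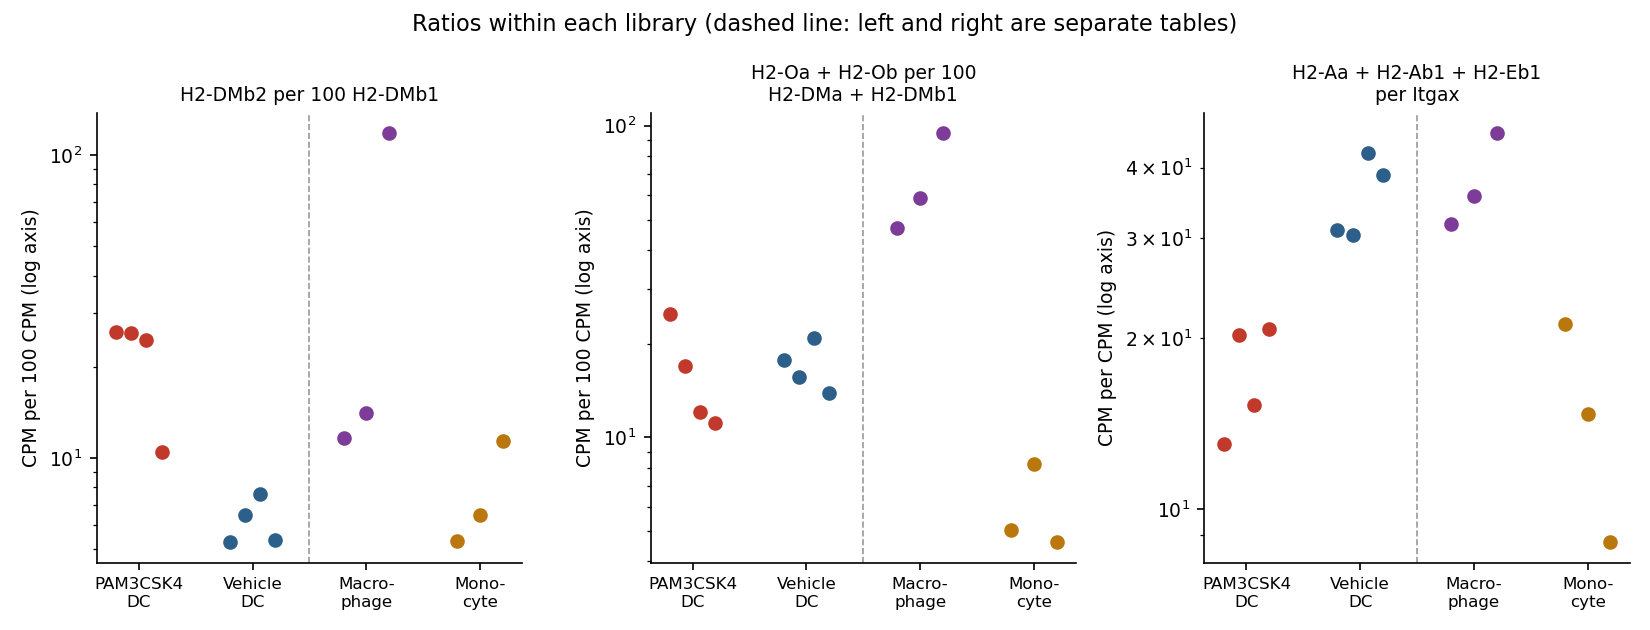
Ratios of CPM within each library (log axes) by group: H2-DMb2 per 100 H2-DMb1, H2-O per 100 H2-DM, and the summed class II chains per Itgax. In the left panel the PAM3CSK4 libraries (10.5 to 26.1) lie above the vehicle libraries (5.27 to 7.62), in the middle panel macrophages (47.1 to 94.4) above monocytes (4.61 to 8.20), and in the right panel the PAM3CSK4 libraries (13.04 to 20.8) below the vehicle libraries (30.4 to 42.5).

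Other markers moved in the same libraries. The 12 conventional dendritic cell markers summed to 1696, 1534, 1405 and 475.6 CPM in PAM3CSK4 replicates 1 to 4, against 1719 to 2182 CPM with vehicle, and 4 of 12 passed as lower and 0 as higher. Among the 4 was Cd209a, at 9.64, 1.70, 1.16 and 0.0001 CPM in PAM3CSK4 libraries, against 323 to 443 CPM in vehicle libraries. Without replicate 4, 5 passed as lower and 1 as higher, Clec4a4 (2.10 ± 0.30, adjusted p = 0.00079, limma). Monocyte markers summed to 1210 to 1608 CPM in PAM3CSK4 libraries, against 1799 to 2696 CPM in vehicle libraries, without overlap, and 3 of 12 passed as lower with all libraries and 4 without replicate 4. Plasma cell markers summed to 115.7 to 152.2 CPM in PAM3CSK4 libraries, against 171.4 to 223.5 CPM in vehicle libraries, and of the 5 tested 1 passed as lower, Irf4, which is also on the conventional dendritic cell list. The 10 plasmacytoid dendritic cell markers summed to 535.8, 218.2, 648.7 and 105.6 CPM in PAM3CSK4 libraries, against 106 to 178.2 CPM in vehicle libraries, with 3 of 9 tested passing as higher, and 5 without replicate 4. Their most specific gene, Siglech, was at 84.8, 18.7, 66.4 and 4.83 CPM in PAM3CSK4 libraries, against 1.39 to 5.61 CPM in vehicle libraries. B220, which plasmacytoid cells carry, was gated out. Of the 12 B cell markers, which matter because B cells also express class II and H2-O, 1 of the 6 tested passed as higher and 1 as lower, and their sums overlapped at 97.8 to 278 CPM with PAM3CSK4 and 94.8 to 271 CPM with vehicle. Erythroid markers summed to 101, 401, 285 and 1273 CPM in PAM3CSK4 libraries and 31.1 to 243 CPM in vehicle libraries, with 3 of 10 tested passing as higher. Of the 11 neutrophil markers tested, 2 passed as higher and 0 as lower with all libraries. Without replicate 4, 3 passed as higher and 2 as lower. Their median log2 difference was then 1.28, beside 0.19 for all genes tested, so the neutrophil markers did not differ in replicate 4 alone. The part of these cell types in the class II values was not tested.

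In the class II region of chromosome 17 none of the other genes tested passed, where 5.12% of all genes tested did (limma). A stretch of 15 genes in the table runs between the start of H2-Oa and the end of H2-Ea-ps, over 252.3 kb of chromosome 17 (mm10, chr17:34092379-34344646), and 8 of them are members. Cd74 is on chromosome 18 and Ciita on chromosome 16. The other 7 include the class I peptide transporter genes Tap1 and Tap2 and the immunoproteasome genes Psmb8 and Psmb9, which lie between H2-DMb1 and H2-Ob. Of these 7, 6 were tested and 0 passed, with log2 differences of −0.19 (H2-Eb2) to 0.10 (Psmb9), and 0 passed without PAM3CSK4 replicate 4, where they ran between −0.03 (Tap2) and 0.23 (Psmb9). At an unadjusted p under 0.05 the count was also 0 of 6 in both fits. Without replicate 4, 6.83% of all genes tested passed, so 0 of 6 passing is near the share over all genes in both fits. H2-Eb2, a second I-E beta chain gene, was at 5.30, 3.68, 10.2 and 1.49 CPM in PAM3CSK4 libraries and at 2.81, 10.5, 4.34 and 4.91 CPM in vehicle libraries.

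**Figure D4:**
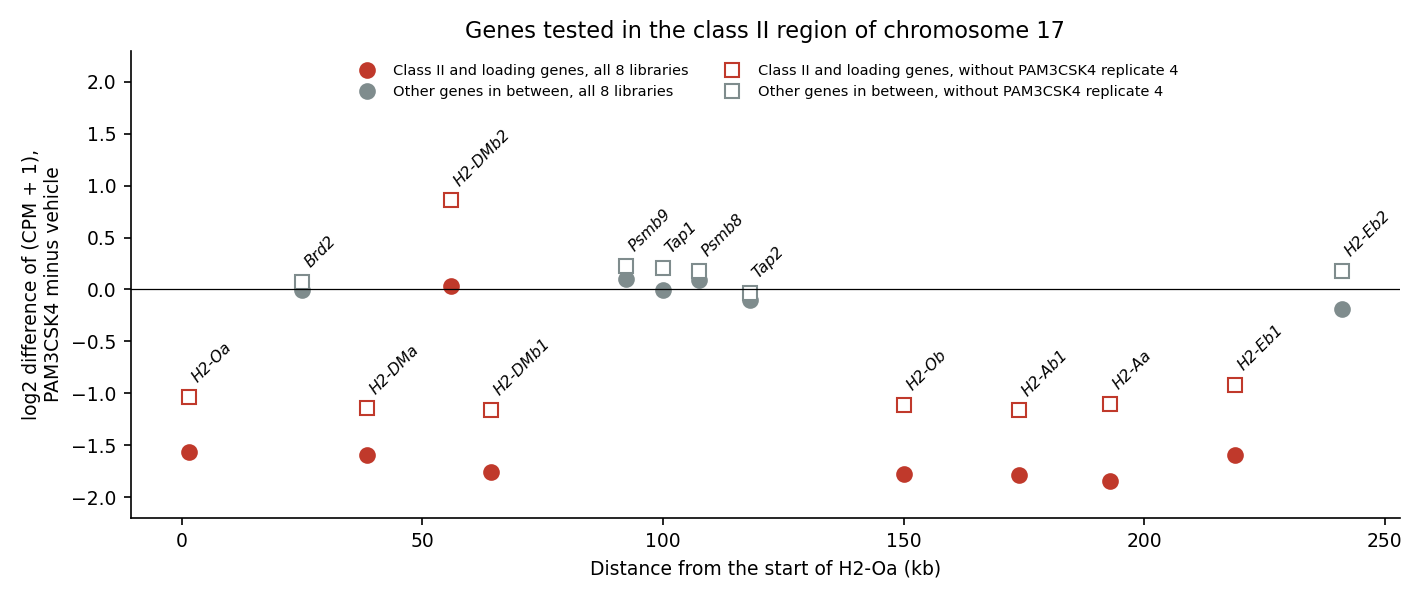
Log2 difference of (CPM + 1), PAM3CSK4 minus vehicle, of the 14 tested genes of the class II region against the distance of each gene's middle from the start of H2-Oa in kb, with all 8 libraries (circles) and without PAM3CSK4 replicate 4 (squares). Red circles of members lie between −1.85 and −1.56 except H2-DMb2 at 0.04, and grey circles of the other genes between −0.19 and 0.10.

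Around the members, the pathway was read from lists of genes set by function. Over all genes tested 2.82% passed as higher and 2.29% as lower with all 8 libraries (limma). Of 13 genes of class II transcription, 0 rose and 1 fell. This was Irf4, a lineage factor of one conventional dendritic cell subset, at 57.1, 24.0, 29.2 and 4.53 CPM in PAM3CSK4 libraries and 87.7 to 117 CPM in vehicle libraries (log2 difference −2.19 ± 0.54, adjusted p = 0.039, limma). The RFX and NF-Y subunit genes did not pass. Rfx5, the DNA-binding RFX subunit, had a log2 difference of −0.25 ± 0.26, and Nfyc and Nfyb had 0.36 ± 0.26 and 0.32 ± 0.23. Irf1, which acts on a Ciita promoter, had −0.52 ± 0.24 (adjusted p = 0.20).

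Of 12 genes of endosomal proteolysis, 1 rose and 1 fell. Ctsl, a cathepsin that can cleave the invariant chain, was at 37.5, 72.4, 39.0 and 30.2 CPM in PAM3CSK4 libraries, against 9.44 to 16.4 CPM in vehicle libraries (1.70 ± 0.29, adjusted p = 0.0084, limma). Cst3, the cathepsin inhibitor cystatin C, was at 242, 170, 225 and 95.6 CPM in PAM3CSK4 libraries, against 399 to 695 CPM in vehicle libraries (−1.74 ± 0.31, adjusted p = 0.010). Neither gene's groups overlapped. Lgmn, an asparagine endopeptidase that can start invariant chain breakdown, was at 243, 939, 520 and 169 CPM in PAM3CSK4 libraries, against 118 to 182 CPM in vehicle libraries. It passed as higher only without PAM3CSK4 replicate 4 (1.72 ± 0.36, adjusted p = 0.0097, against 1.34 ± 0.44 and adjusted p = 0.096 with it). Ctsc, another cathepsin gene, had 1.01 ± 0.31 (adjusted p = 0.078). Of 12 macrophage markers 2 passed as higher and 3 as lower. Hmox1 was at 177.8, 835.4, 314.5 and 168.0 CPM in PAM3CSK4 libraries, against 42.4 to 85.3 CPM in vehicle libraries, and Spic at 14.96, 143, 46.2 and 19.1 CPM in PAM3CSK4 libraries, against 5.70 to 8.52 CPM in vehicle libraries. Cd163, Mrc1 and Axl fell, and Adgre1 passed as higher without replicate 4. The 12 markers summed to 2727 CPM in PAM3CSK4 replicate 2, which was also highest in Ctsl and Lgmn, against 467.5 to 1089 CPM in the other PAM3CSK4 libraries and 802.6 to 1360 CPM with vehicle. The part of macrophages in the Ctsl and Lgmn values was not tested.

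Of 11 tested genes of class II trafficking and turnover, 0 rose and 0 fell, with or without replicate 4, and 2 had an unadjusted p under 0.05 in each fit. Over all genes tested 5.12% passed in either direction with replicate 4 and 6.83% without it. Counts of 0 here and in the class I list are near these shares. March1, the ubiquitin ligase that removes class II from the surface, had a log2 difference of −0.80 ± 0.38 (adjusted p = 0.21, limma), and of −0.40 ± 0.28 without replicate 4. The tetraspanin genes Cd82 and Cd9 had −0.58 ± 0.25 and −0.66 ± 0.31, and the adaptor gene Ap1m1 0.52 ± 0.22. Of 13 genes of class I presentation, 0 rose and 0 fell, again with or without replicate 4, where 3 and 1 had an unadjusted p under 0.05 without and with it, and the median log2 difference of that list was 0.03, against 0.20 over all genes tested. The chaperone genes Calr and Pdia3 had 0.72 ± 0.28 and 0.64 ± 0.30, H2-D1 had −0.42 ± 0.26 and B2m 0.48 ± 0.34.

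In the baseline cells the comparison of macrophages with monocytes is set in part by the gates, since only the macrophage gate asked for MHC class II. The inhibitor genes differed most clearly. H2-Ob was at 48.5, 78.7 and 60.1 CPM in macrophage replicates 1 to 3, against 7.96, 6.01 and 2.38 CPM in monocyte replicates 1 to 3, and rose by 3.38 ± 0.36 on the log2 scale (adjusted p = 6.8e-05, limma). H2-Oa was at 13.4, 23.1 and 15.3 CPM in macrophages, against 3.41, 1.30 and 1.87 CPM in monocytes, and rose by 2.53 ± 0.34 (adjusted p = 0.00028). Neither gene's groups overlapped, and both passed in every alternative run. As a description, H2-Oa and H2-Ob summed to 47.1, 58.5 and 94.4 CPM per 100 CPM of H2-DMa and H2-DMb1 in macrophages. In monocytes they summed to 5.04, 8.20 and 4.61 CPM.

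The exchanger genes did not follow. H2-DMa was at 75.4, 97.3 and 54.6 CPM in macrophages and at 123, 53.3 and 60.2 CPM in monocytes, and H2-DMb1 was at 56.0, 76.7 and 25.3 CPM in macrophages and at 103, 35.9 and 32.2 CPM in monocytes. Both overlapped, with log2 differences of 0.01 ± 0.33 and −0.04 ± 0.46 whose signs turn with the scaling (adjusted p = 0.99 and 0.97, limma). H2-DMb2 was at 6.53, 10.8 and 29.8 CPM in macrophages, against 5.47, 2.33 and 3.66 CPM in monocytes, and passed as higher (1.59 ± 0.47, adjusted p = 0.030). Its highest library was macrophage replicate 3, at 118 CPM of H2-DMb2 per 100 CPM of H2-DMb1, against 11.7 and 14.1 in the other macrophages and 5.33 to 11.4 in monocytes. Without that library H2-DMb2 no longer passed (1.02 ± 0.40, adjusted p = 0.099), nor did it without macrophage replicate 2 or monocyte replicate 2 (adjusted p = 0.087 and 0.082).

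H2-Aa was at 570, 926 and 418 CPM in macrophages, against 589, 136 and 44.5 CPM in monocytes. H2-Ab1 was at 548, 933 and 370 CPM in macrophages, against 596, 75.8 and 42.2 CPM in monocytes. H2-Eb1 was at 432, 722 and 306 CPM in macrophages, against 485, 82.8 and 34.2 CPM in monocytes. In all 3 chains monocyte replicate 1 was among the macrophages and the other monocytes were far below, and the log2 differences of 1.97 ± 0.69, 2.20 ± 0.74 and 2.02 ± 0.71 did not pass (adjusted p = 0.065, 0.056 and 0.068, limma). Cd74 was at 1269, 1656 and 1128 CPM in macrophages, against 1820, 325 and 136 CPM in monocytes (1.62 ± 0.69, adjusted p = 0.13). Ciita was at 85.8, 164 and 56.8 CPM in macrophages, against 124, 21.5 and 12.2 CPM in monocytes (1.50 ± 0.66, adjusted p = 0.14). For Cd74 monocyte replicate 1 was the highest of all 6 libraries.

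**Figure D5:**
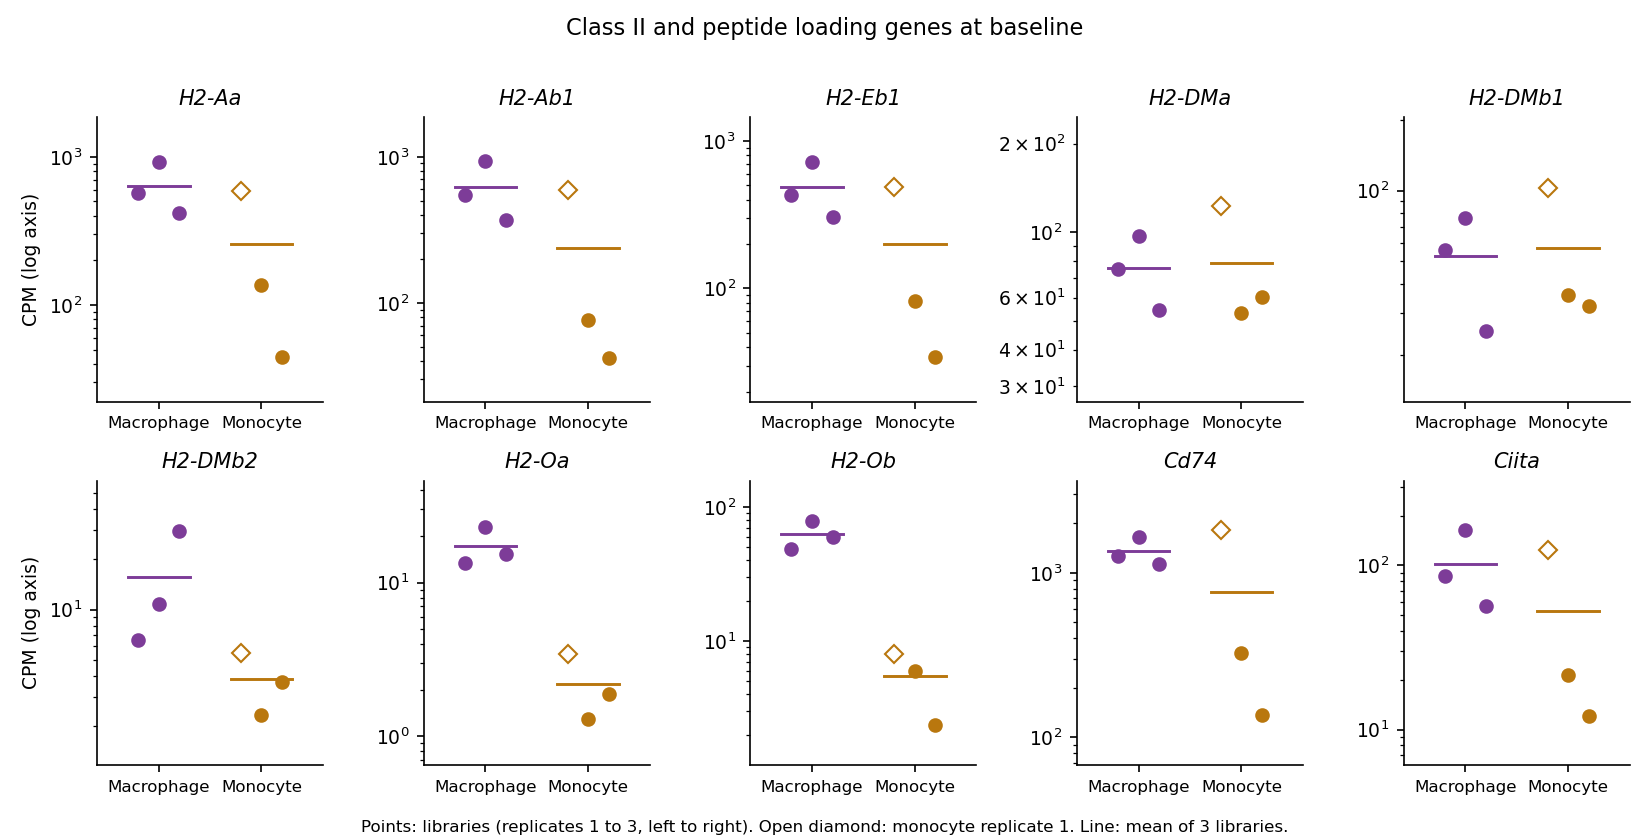
CPM of each of the 10 genes (log axis) in the 3 macrophage libraries (left) and the 3 monocyte libraries (right), with the mean as a line and monocyte replicate 1 as an open diamond. H2-DMb2, H2-Oa and H2-Ob do not overlap, and in the other 7 genes the open diamond lies among or above the macrophage libraries.

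Over the set 3 of 10 genes passed as higher and 0 as lower, where 12.8% of all genes tested passed as higher and 20.2% in either direction (limma). At an unadjusted p under 0.05, 8 were higher and 0 lower, where 19.1% of all genes tested were higher. The groups did not overlap in these 3, against 20.4% of all genes tested in that direction, and exact permutation p-values cannot go below 0.10 with 3 against 3 libraries. The median log2 difference of the 10 was 1.80, beside 0.10 for all genes tested. Monocyte replicate 1 was 1.83-fold to 10.1-fold above the mean of the other monocytes in each of the 10 genes. Its Itgax was at 78.9 CPM against 20.0 and 13.8 CPM in the other monocytes, and its conventional dendritic cell markers summed to 1751 CPM against 972.8 and 979.6 CPM. Of that sum 703.9 CPM were Sirpa and 574.3 CPM Irf8, whereas its Xcr1 was the lowest, at 0.0885 CPM against 1.10 and 0.188 CPM. Its monocyte markers differed in both directions. Ace was at 265.6 CPM against 25.7 and 56.3 CPM, and Ly6c2 at 319.2 CPM against 554.7 and 610.7 CPM. The part of cell composition in the result was not tested. Without macrophage replicate 1, 2 or 3 the members that passed as higher numbered 3, 2 and 5, where 8.45%, 10.6% and 12.4% of all genes tested did. Without monocyte replicate 2 or 3 they numbered 2 and 3 (16.7% and 9.4% of all genes tested). Without monocyte replicate 3 the median log2 difference of the 10 was 1.14, and H2-Aa, Cd74 and Ciita were at 1.09, 0.79 and 0.83. Without monocyte replicate 1, 8 of the 10 genes passed as higher (13.7% of all genes tested), all but H2-DMa and H2-DMb1, among them H2-Ab1 (3.32 ± 0.38, adjusted p = 1.8e-06, limma) and Ciita (2.45 ± 0.39, adjusted p = 7.1e-05).

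The macrophage libraries held markers of other cells. Siglec1, the gene of the sorted CD169, was at 18.9, 18.6 and 25.2 CPM in macrophages, against 34.7, 2.20 and 14.1 CPM in monocytes, and Adgre1, the gene of F4/80, at 16.2, 22.9 and 32.7 CPM in macrophages, against 93.9, 42.6 and 60.0 CPM in monocytes. Siglec1 overlapped, and Adgre1 was lower in macrophages without overlap (−1.40 ± 0.33, adjusted p = 0.011, limma), whereas Vcam1, a marker of marrow macrophages, was at 100, 61.3 and 109 CPM in them, against 29.8, 12.9 and 15.1 CPM in monocytes. Xcr1, of conventional dendritic cells, was at 73.8, 148 and 29.1 CPM in macrophages, against 0.0885, 1.10 and 0.188 CPM in monocytes. Of the 11 conventional dendritic cell markers tested, 3 passed as higher (Xcr1, Clec9a and Zbtb46) and 3 as lower (Cd209a, Clec10a and Sirpa), and the 12 summed to 747.5 to 1082 CPM in macrophages and 972.8 to 1751 CPM in monocytes. The 12 B cell markers, 9 of which passed as higher, summed to 302, 313 and 1267 CPM in macrophages, against 101, 232 and 85.2 CPM in monocytes, and macrophage replicate 3 was highest in these as in H2-DMb2. Plasma cell markers summed to 2437, 547 and 8320 CPM in macrophages, against 124 to 211 CPM in monocytes. T and NK cell markers summed to 144 to 391 CPM in macrophages and 11.3 to 25.8 CPM in monocytes, with 10 of 11 passing as higher. Erythroid markers, 12 of 12 of which passed as higher, summed to 259.4 to 1051 CPM in macrophages and 13.66 to 89.77 CPM in monocytes. Of the 11 neutrophil markers tested, 7 passed as higher and 4 as lower. The 12 neutrophil markers summed to 1620 to 4011 CPM in macrophages and 2374 to 3405 CPM in monocytes. The part of these cells in the H2-O and H2-DMb2 values was not tested.

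Elsewhere in the pathway the macrophage libraries were lower in endosomal proteolysis, with 7 of 12 genes down and 0 up. Over all genes tested 7.42% passed as lower. Ctss, the main protease of the invariant chain in dendritic cells and B cells, was among the 7 (−1.92 ± 0.30, adjusted p = 0.00081, limma). So was Ifi30, the lysosomal thiol reductase (−2.09 ± 0.30, adjusted p = 0.00047, limma). The part of the other cells in the macrophage libraries in these values was not tested. Of 11 tested trafficking genes 4 rose, Cd83, Cd63, Cd9 and Cd82, and 1 fell, Tfeb. The shares over all genes tested were 12.8% higher and 7.42% lower, and the next lists were near them. Of 13 class I genes 2 rose, Tap2 (1.01 ± 0.28) and Psmb9 (0.83 ± 0.27), and of 13 transcription genes 1 fell, Spi1 (−1.32 ± 0.29), the gene of the myeloid factor PU.1.

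The genes whose CPM most resembled the members were sought over the 8 dendritic cell libraries by Pearson correlation with the mean scaled log2 value of the 10 genes. They were Plekho1, Gm2a, Plekhm3, Ptchd1 and Havcr2, with r = 0.992 to 0.981 among 11367 genes. Gm2a, a lysosomal lipid-binding protein, was at 642, 477, 540 and 146 CPM in PAM3CSK4 libraries, against 774 to 1128 CPM in vehicle libraries. Without PAM3CSK4 replicate 4 these 5 ranked between 49 and 195, so the order rests on that library. Both the contrast between treatments and the low values of PAM3CSK4 replicate 4 enter the correlations over 8 libraries. Within the set H2-DMb2 was least like the mean, with r = 0.711 over 8 libraries and −0.729 over 7, where the other 9 genes had r of at least 0.864. Each member is itself part of that mean, which raises the r of members that go together.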

How the data were processed

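The 2 tables give 1 value per gene and library, which the authors labelled FPKM and which is treated here as CPM. The unit was read from the values: with 1 step per library for all genes, 65.6% to 68.4% of low values in the dendritic cell table and 87.6% to 90.5% in the other lay within 0.05 steps of a whole multiple, and at most 11.4% with a step 7% longer. A step in FPKM would depend on gene length. Split by genomic span into 3 equal classes, short genes gave 75.5% to 79.7% and 85.7% to 89.7%, and long genes 56.7% to 59.6% and 90.9% to 92.6%. The tables differ in this, and levels are not compared across them. This was too few to recover counts, and no count test was made. Per the submitters' processing notes the build was mm10 and the tools were Partek and STAR 2.5.3a. Their roles, the annotation and the strand setting are not stated in the labels.

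Groups came from the sample labels. In the table of monocytes and macrophages, 3 columns could not be given a group by name and were not used. No libraries held identical values. Within each table log2(CPM + 1) was tested with limma 3.58.1 in R 4.3.3 (eBayes with trend, two-sided, Benjamini-Hochberg over all genes tested, threshold 0.05), checked on simulated data. A gene entered the test if 1 CPM was reached in a number of libraries equal to the smaller group or more. Log2 differences understate the change of low genes. Exact permutation tests were two-sided. The text names the 10 members, up to 4 genes per pathway list by unadjusted p in the treatment contrast of dendritic cells, sorting marker genes, the 5 most alike genes, genes that share exons with a member, and marker genes beside a result. Rfx5, the genes of the class II region and the genes named from the pathway lists in macrophages were chosen after values were seen. Ratios within a library were not planned and are given without a test. The members and lists were chosen with earlier results of these data known. Alternatives were another pseudocount, no filter, 3 rescalings, no trend, a replicate block and leaving out each library.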

Additional observations from a re-analysis of the deposited data

Results flagged for a closer look

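In 20 groups of 4 dendritic cell libraries (10 genes, both treatments), 4 held a library whose gap to its nearest neighbour was large for the range of the group (Dixon's criterion, which chance meets in about 1 of 20 groups). H2-Aa in PAM3CSK4 replicate 4 was the lowest of its group at 181.6 CPM. This library was low in all 10 genes. Among the vehicle libraries H2-DMa and H2-DMb1 were both highest in replicate 4, at 316.1 and 352.3 CPM. So were H2-Ab1, H2-Eb1, H2-Oa and Cd74, without meeting the criterion. Ciita was lowest in vehicle replicate 3, at 94.32 CPM, which is the value that makes its groups overlap.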

How the results depend on the processing

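Over dendritic cells 582 genes passed (321 higher, 261 lower), and without a filter on low values 166 did. Rescaling turned the balance: a common total gave 277 higher and 391 lower, median centring 208 and 487, and quantile normalization 237 and 438, as the median log2 difference of all genes moved from 0.20 to 0.07, −0.02 and 0.02. Leaving out 1 library gave 184 to 1008 genes. Members remained lower in every alternative except H2-DMb2, whose log2 difference of 0.04 became −0.027 with a pseudocount of 0.1, −0.10, −0.18 and −0.19 with these rescalings, and −0.34 to 0.86 with 1 library left out. H2-DMa was not called without a filter (adjusted p = 0.13, limma), and the rescalings called 2 to 4 members as lower. In macrophages against monocytes 2468 genes passed, and 1699 to 3364 with 1 library left out. There H2-DMb1 was 0.13 with a common total, 0.052 with quantile normalization and −0.38 to 0.48 with 1 library left out, and H2-DMa was −0.12 with median centring and −0.22 to 0.37 with 1 library left out. H2-DMb2 was not called without a filter, with median centring or with quantile normalization (adjusted p = 0.086, 0.074 and 0.17, limma), and Cd74 was called with quantile normalization (2.49, adjusted p = 0.043). The cause of these shifts was not tested.

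Deviations of same-numbered dendritic cell libraries correlated at r = 0.29 and 0.30 for replicates 2 and 4 and at 0.0332 and −0.115 for replicates 1 and 3, and those of macrophages and monocytes at 0.183, 0.0836 and 0.115 (each best with its own number). Not every pair exceeded 0.1, so the numbers are not taken as pairs. With the replicate block 976 genes passed in dendritic cells, 3 members among them, and 2609 in macrophages against monocytes, 6 members among them. Members that passed with the block and not in the main fit were H2-DMb1 and H2-Ob in dendritic cells (adjusted p = 0.041 and 0.043, limma). In macrophages they were H2-Aa, H2-Ab1 and H2-Eb1 (adjusted p = 0.043, 0.045 and 0.049, limma). The planned comparisons of dendritic cells with monocytes and with macrophages were not run, as their columns in that table could not be given a group by name. Where leaving out a library left a group of 2 or 3, limma pooled the spread.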
